A study of Homo sapiens with 9 samples.

Results

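The 9 named genes that code for receptors of the tumour necrosis factor (TNF) receptor family on B cells and for the adaptors beneath them were followed through all 9 libraries of the series. The 5 receptor genes were TNFRSF13B (TACI), TNFRSF13C (BAFF receptor), TNFRSF17 (BCMA), CD40 and CD27, and the 4 adaptor genes were TRAF1, TRAF2, TRAF3 and TRAF5. They were chosen by symbol, matched to Ensembl identifiers, and 9 of the 58243 gene identifiers in each count file were theirs. They were not picked by their values in these libraries, although earlier results on them were known. Bulk RNA-seq was made from DOHH2, a cell line that was established from a human transformed follicular lymphoma, in 3 groups of 3 libraries. For day 0, cultured cells were sampled when the mice were injected. The day 19 and day 40 groups held human cells sorted on CD20 from femurs of grafted RAGγc mice, an immunodeficient strain that accepts human cells, on those days after the graft. Femur cells had passed through enzymatic digestion of marrow and bone, bead depletion of mouse blood cells and sorting, which the labels describe for femurs only, so growth in the mouse and this handling cannot be told apart in any comparison with culture. All results rest on 1 cell line.

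BAFF and APRIL are TNF family ligands that keep mature B cells and plasma cells alive, and TACI, BAFF receptor and BCMA are their receptors. BAFF receptor binds BAFF, whereas TACI and BCMA bind both ligands. CD40 receives the T-cell signal CD40 ligand in germinal centres, and CD27 is the receptor of CD70 and a marker of memory B cells and plasma cells. These receptors have no enzyme activity and act through TRAF proteins. TRAF2 and TRAF3 together hold the kinase NIK at a low level until a receptor is engaged, and NIK starts the non-canonical NF-κB pathway.

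Libraries held between 21071239 and 29456271 counts. Levels are given as CPM, read counts brought to a common library size after TMM scaling, a method that evens out differences in composition, and tests are edgeR quasi-likelihood tests with Benjamini-Hochberg adjustment over all 15163 genes tested, with an adjusted p under 0.05 as the call. All 9 genes passed the filter on low counts, but TNFRSF13B passed only through the femur libraries, since it had no count in culture. Of 9 B-cell markers 8 were well above 0 in all groups and CR2 had at most 1 count per library. Of the 8 that could be tested, 1 was higher and 5 lower at day 19 and 2 were higher and 5 lower at day 40. Of all genes, 52.8% and 46.6% were called at these days. PAX5, the transcription factor of B-cell identity, was higher, with 835 ± 36.9 CPM at day 19 and 731 ± 108 CPM at day 40, against 509 ± 35.3 CPM in culture (SD, n = 3). MS4A1, the gene of the sorted antigen CD20, was lower, with 455 ± 50.2 and 689 ± 26.7 CPM, against 1179.9 ± 246 CPM, and so was the B-cell receptor inhibitor CD22, with 205 ± 4.65 and 425 ± 51.3 CPM, against 971 ± 113 CPM. CD79A, CD79B and PTPRC also fell at both days, and the part of these shifts in the other results was not tested. Nothing in the labels says which culture or animal gave which library, so the p-values rest on a spread between samples that may be partly technical. Dates in the titles put the libraries in 3 sampling periods, each with 1 library per group, and replicate numbers here follow these periods. By these dates day 40 replicates 1 and 2 were taken 11 and 26 days after the culture library of their period, and replicate 3 was taken 39 days after it. The labels do not say whether replicates 1 and 2 came from earlier grafts, so the time since grafting is uncertain for these libraries, in the day 40 means and in the ratios within periods alike.

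Between day 19 and culture, TNFRSF13B and TRAF3 rose and TNFRSF13C, TNFRSF17, CD27 and TRAF1 fell. CD40, TRAF2 and TRAF5 did not pass the test. That made 6 of 9 genes called, 2 higher and 4 lower, in a comparison in which 52.8% of all genes were called, 26.3% higher and 26.5% lower. Between day 40 and culture 6 of 9 genes were called again, with TNFRSF13B, TRAF3 and TRAF5 higher and TNFRSF13C, TNFRSF17 and CD27 lower, where 46.6% of all genes were called, 23.3% in each direction. Scaled by library totals without TMM, 61.1% of all calls at day 40 were higher, against 49.9% with TMM. Between day 40 and day 19, CD27 and TRAF1 were higher and none of the 9 was lower by edgeR, by DESeq2 or at an unadjusted p under 0.05 (0 in each case), where 4.68% of all genes were called, 3.23% higher and 1.45% lower. Both counts of 6 include TNFRSF13B, which could enter the test only because it was high in femur, and 5 of the other 8 genes were called at each day. Neither count is far from the share over all genes. Over all genes, libraries did not overlap in 61.5% of cases between day 19 and culture, in 54.8% between day 40 and culture and in 26.6% between day 40 and day 19. The median log2 fold change of the 9 genes was -0.36 at day 19, against 0.01 over all genes, and -0.16 at day 40, against 0.01 over all genes, and neither median changes with the value given to TNFRSF13B as long as that gene counts as raised.

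**Figure D1:**
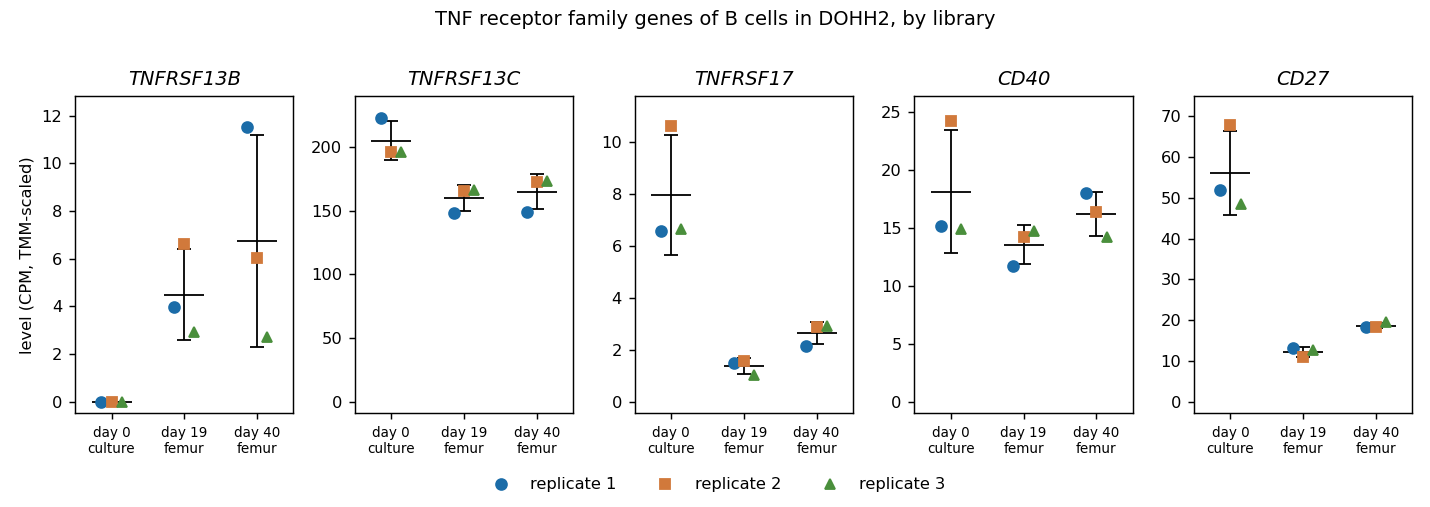
Levels of the 5 receptor genes in CPM in each library, at day 0 in culture and at day 19 and day 40 in femur, with symbols for the replicates and black bars for mean ± SD (n = 3). TNFRSF13B lay at 0 in the 3 culture libraries and between 2.70 and 11.5 CPM in the 6 femur libraries, while CD27 lay between 48.6 and 67.9 CPM in culture and between 10.9 and 19.4 CPM in femur.

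TNFRSF13B, the TACI gene, had no count in culture and was present in every femur library. The gene (ENSG00000240505) spans chromosome 17 from 16929816 to 16972118 on the minus strand (hg38, GENCODE 29). Its counts were 0, 0 and 0 at day 0, then 90, 142 and 69 at day 19 and 318, 180 and 66 at day 40. The levels were 3.95, 6.61 and 2.91 CPM at day 19 and 11.5, 6.03 and 2.70 CPM at day 40. Femur and culture libraries did not overlap, and within each femur group replicate 3 was the lowest. Against a floor of 3 counts over the culture group (0.042 CPM), the mean of TNFRSF13B was at least 106.85-fold higher at day 19. At day 40 the mean was at least 160.5-fold higher. These bounds hold for the group means and do not cover the spread of the femur libraries, the lowest of which had 2.91 CPM at day 19 and 2.70 CPM at day 40. The gene is called in both comparisons, but it entered them only through its femur counts, so the call adds nothing to these bounds. This floor covers counting error only, since PCR copies without molecular tags are counted as separate reads. Between the femur groups the level was 6.75 ± 4.45 CPM at day 40 and 4.49 ± 1.90 CPM at day 19 (SD, n = 3), a log2 difference of 0.60 (95% interval -0.41 to 1.60; adjusted p = 0.595), and the libraries overlapped.

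The pseudogene TBC1D27P overlaps TNFRSF13B on the same strand and shares 615 bases of exon with it, and the sources used here do not say how reads in that stretch were assigned. TBC1D27P also had no count in culture and reached 4.11 ± 1.04 CPM at day 19 and 7.94 ± 5.27 CPM at day 40. Its values followed those of TNFRSF13B closely (Pearson r = 0.997 of log2 CPM over the 9 libraries), the highest of 10297 other genes compared. After it came ARHGEF40, at 0.996, and ENPP1, at 0.993. ARHGEF40 had 2.58 ± 0.0445 CPM in culture, 13.9 ± 1.44 CPM at day 19 and 14.2 ± 2.57 CPM at day 40. The 9 libraries come from 3 groups, so these correlations include the step between culture and femur. Day 40 replicate 1, with the highest TNFRSF13B level, also stood apart in TNFAIP3, a gene chosen after its values were seen that codes for the NF-κB inhibitor A20, with 19.8 CPM against 2.91 and 1.51 CPM in the other day 40 libraries. Without that library TNFRSF13B had a log2 difference of -0.02 between day 40 and day 19 (adjusted p = 0.991).

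The promoter window of TNFRSF13B is shown because the gene had counts in femur and none in culture. It runs from 250 bases before the start of transcription to 50 bases after it (chr17:16972069-16972368, minus strand, RefSeq, GRCh38.p14), and capitals mark the matches to motifs searched on both strands.
TNFRSF13B: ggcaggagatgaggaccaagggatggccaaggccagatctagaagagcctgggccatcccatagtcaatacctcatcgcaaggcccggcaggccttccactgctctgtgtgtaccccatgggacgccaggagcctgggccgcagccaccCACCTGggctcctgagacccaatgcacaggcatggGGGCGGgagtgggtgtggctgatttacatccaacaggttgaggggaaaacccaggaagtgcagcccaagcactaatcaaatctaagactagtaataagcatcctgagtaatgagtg
The search used a κB-type motif (GGG, any 3 bases, TTCC), GAGGAAGT for an ETS-type site, ATGCAAAT for the octamer, CAGGTG for an E-box and GGGCGG for an SP or KLF type site. The TNFRSF13B window held CACCTG, the E-box read on the other strand, beginning 101 bases before the start, and GGGCGG beginning 66 bases before it. Of 35116 RefSeq windows of this length 20.6% held CAGGTG, 45% held GGGCGG, 6.52% held the κB-type motif, 2.59% held GAGGAAGT and 1.77% held ATGCAAAT on either strand. These matches describe the sequence alone.

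TNFRSF13C, the BAFF receptor gene, was the most abundant of the 5 receptors in CPM and per exon length in every group and fell by a small amount in femur. Its annotated span (ENSG00000159958) is chromosome 22 from 41922023 to 41926818, minus strand. The libraries held 222, 196 and 196 CPM at day 0, 148, 165 and 166 CPM at day 19 and 149, 173 and 173 CPM at day 40. Every femur library lay below every culture library. The log2 fold change was -0.36 (SE 0.08; adjusted p = 0.00261) at day 19 and -0.31 (SE 0.08; adjusted p = 0.00691) at day 40, which amounts to 0.781 and 0.805 times the culture level. Between the femur groups the log2 difference was 0.04 (95% interval -0.13 to 0.22). With day 40 represented by replicate 3 alone, which was then assumed to vary like the other groups, the day 40 call was lost (adjusted p = 0.120, the highest over the alternatives, which began at 1.67e-04). The genes with the most similar pattern were FOXRED2 (Pearson r = 0.974 over the 9 libraries), KIF4A (0.970) and CDC123 (0.964). They were the highest of 10297 genes compared, and their correlations include the step between culture and femur.

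TNFRSF17, the gene of BCMA, a receptor that is typical of plasma cells, fell strongly in femur. On chromosome 16 the gene (ENSG00000048462) runs from 11965107 to 11968068, plus strand. Its levels were 6.57, 10.6 and 6.66 CPM at day 0, 1.49, 1.58 and 1.01 CPM at day 19 and 2.14, 2.88 and 2.91 CPM at day 40. The 3 groups did not overlap, with day 19 lowest and culture highest. Relative to culture it fell, with a log2 fold change of -2.54 (SE 0.26; adjusted p = 6.26e-06) at day 19 and -1.59 (SE 0.24; adjusted p = 2.11e-04) at day 40. Day 40 was above day 19 by 0.96 on the log2 scale (95% interval 0.37 to 1.54), which missed the threshold (adjusted p = 0.0662). The difference passed it in 5 of 17 alternatives, among them DESeq2 (adjusted p = 0.0199) and a fit with a block on the sampling period (0.0312). Of 8 plasma-cell markers 7 could be tested. At day 19, 2 were higher and 2 lower, and at day 40, 3 were higher and 3 lower, beside 52.8% and 46.6% of all genes called. Their summed level was 999 to 1040 CPM at day 19 and 1045 to 1228 CPM at day 40, against 1497 to 2003 CPM in culture. Among them JCHAIN, the joining chain of IgM and IgA, had 469 ± 41.5 CPM at day 19 and 630.4 ± 64.1 CPM at day 40, against 1115 ± 207 CPM in culture. XBP1, a transcription factor of secretory cells, also fell at both days (log2 fold change -0.52 and -0.35). Other markers of the list went the opposite way, with IRF4 at 5.88 ± 2.65 CPM at day 19 and 5.38 ± 2.07 CPM at day 40, against 0.0707 ± 0.122 CPM in culture. SDC1, the gene of CD138, had 0.474 ± 0.127 and 0.323 ± 0.154 CPM in the same femur groups, against no count in culture, and PRDM1 was higher at day 40 (2.15). Their part in the fall of TNFRSF17 was not tested.

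Among the 3 receptors of BAFF and APRIL, levels per exon length (RPKM) were led by TNFRSF13C in all libraries. It made up 87.9% ± 3.50 of their summed RPKM at day 0, 94.2% ± 1.68 at day 19 and 90.7% ± 2.47 at day 40 (SD, n = 3). TNFRSF17 made up 12.1% ± 3.50, 2.84% ± 0.678 and 5.11% ± 0.574, and TNFRSF13B 0%, 2.92% ± 1.13 and 4.23% ± 3.03 in the same order of days. In culture the second receptor by this measure was thus BCMA alone, whereas in femur TACI and BCMA had overlapping levels per length.

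CD40 was not called in any comparison. The gene (ENSG00000101017) spans chromosome 20 from 46118272 to 46129863 on the plus strand. It had 15.2, 24.3 and 14.9 CPM at day 0, 11.7, 14.2 and 14.8 CPM at day 19 and 18.0, 16.4 and 14.2 CPM at day 40. Culture replicate 2 was the highest of the 9 libraries. The log2 fold change at day 19 was -0.41 (95% interval -0.80 to -0.03; adjusted p = 0.0681), although the day 19 libraries all lay below those of culture, as the libraries of 61.5% of all genes did not overlap in this comparison. It passed the threshold without culture replicate 1 (adjusted p = 0.0399), without culture replicate 3 (0.0269) and without the filter on low counts (0.00299). In the fit without the filter the log2 fold change was little different, at -0.44. It was -0.16 without culture replicate 2 (adjusted p = 0.329, the highest of its alternatives). At day 40 the log2 fold change was -0.16 (95% interval -0.54 to 0.23; adjusted p = 0.489), and between day 40 and day 19 it was 0.26 (95% interval -0.13 to 0.65; adjusted p = 0.545). NDC80 (Pearson r = 0.962), PLPP1 (0.947) and MBIP (0.941) had the patterns most like that of CD40 over the 9 libraries. They were the highest of 10297 genes compared, and shared control was not tested. NDC80 itself moved little, with means of 61.4 CPM in culture, 57.6 CPM at day 19 and 59.8 CPM at day 40.

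CD27 fell strongly in femur and was higher at day 40 than at day 19. CD27 (ENSG00000139193) runs on chromosome 12 from 6444867 to 6451718, plus strand. The libraries held 52.03, 67.9 and 48.6 CPM at day 0, 13.1, 10.9 and 12.6 CPM at day 19 and 18.3, 18.4 and 19.4 CPM at day 40. The 3 groups were fully separate, with day 40 between day 19 and culture. In log2 fold change this was -2.20 (SE 0.13; adjusted p = 3.97e-08) at day 19 and -1.59 (SE 0.12; adjusted p = 8.77e-07) at day 40. Day 40 was above day 19 by 0.61 on the log2 scale (SE 0.13; adjusted p = 0.0154), and within the 3 sampling periods the ratio of day 40 to day 19 was 1.39, 1.68 and 1.55. This last call was lost when day 19 replicate 2 (adjusted p = 0.0907) or day 19 replicate 3 (0.0615) was left out, and with day 40 replicate 3 alone (0.208), in a range that began at 2.39e-06.

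The antisense gene CD27-AS1 shares 522 bases of exon with CD27 on the opposite strand, and the sources used here give no strand setting, so reads from that stretch cannot be told apart. CD27-AS1 was not called at day 19 (log2 fold change 0.22; adjusted p = 0.349). At day 40 it had 5.04 ± 0.745 CPM, against 3.44 ± 0.582 CPM in culture, and was called higher (adjusted p = 0.0290). TAPBPL, which shares 29 bases of exon with CD27 on the same strand, rose at both days and had 21.6 ± 0.760 CPM at day 19 and 19.9 ± 0.626 CPM at day 40, against 8.87 ± 0.498 CPM in culture. T cells also carry CD27. The summed level of 9 T and NK cell markers was 26.4 to 35.7 CPM at day 0, 14.0 to 15.5 CPM at day 19 and 26.3 to 27.7 CPM at day 40, of which TRAC gave 21.3 ± 3.19, 6.06 ± 0.991 and 15.5 ± 1.53 CPM and CD247 gave 5.30 ± 1.32, 7.37 ± 1.49 and 9.89 ± 0.622 CPM. Of 4 that could be tested, TRAC, CD3E and NKG7 were lower at both days and CD247 was higher at day 40 (log2 fold change 0.90; adjusted p = 0.00281), while CD2 and CD7 had no count in any library and CD3D had at most 1. Their part in the CD27 result was not tested. In bulk RNA, fewer cells that carry a transcript and less of it per cell cannot be told apart.

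**Figure D2:**
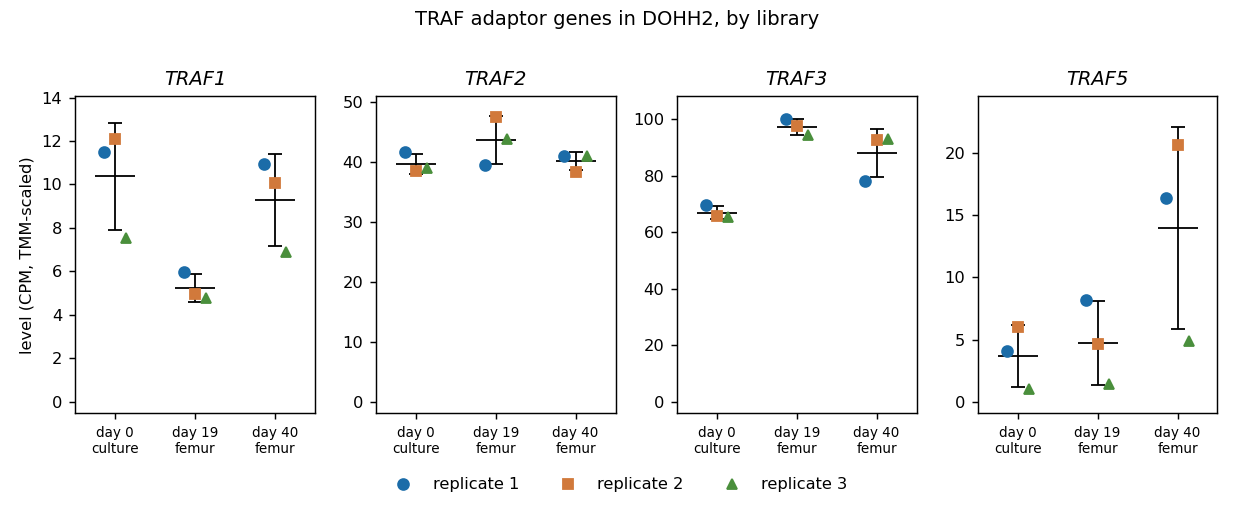
Levels of the 4 TRAF genes in CPM in each library, at day 0 in culture and at day 19 and day 40 in femur, with symbols for the replicates and black bars for mean ± SD (n = 3). TRAF3 lay between 65.3 and 69.5 CPM in culture and between 78.1 and 100.2 CPM in femur, TRAF1 dipped at day 19, and replicate 3 was the lowest library of TRAF5 in each group.

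TRAF3, which restrains NIK and thereby non-canonical NF-κB, was higher in femur at both days. The gene (ENSG00000131323) runs on chromosome 14 from 102777476 to 102911500 on the plus strand. The libraries held 69.5, 65.8 and 65.3 CPM at day 0, 100.2, 97.5 and 94.6 CPM at day 19 and 78.1, 92.8 and 92.9 CPM at day 40. All femur libraries lay above all culture libraries. TRAF3 rose by a log2 fold change of 0.54 (SE 0.07; adjusted p = 7.14e-05) at day 19 and 0.40 (SE 0.07; adjusted p = 0.00101) at day 40, and both calls were kept in all 17 alternatives. Between day 40 and day 19 it was -0.15 (95% interval -0.31 to 0.01; adjusted p = 0.341), although no day 40 library reached the lowest day 19 library.

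TRAF2, the partner that brings the ubiquitin ligases BIRC2 and BIRC3 to the receptor complex, had nearly even levels. TRAF2 (ENSG00000127191) spans chromosome 9 from 136881912 to 136926607 on the plus strand. Its levels were 41.6, 38.5 and 39.0 CPM at day 0, 39.5, 47.4 and 43.8 CPM at day 19 and 41.0, 38.3 and 41.0 CPM at day 40, and the groups overlapped. The log2 fold change was 0.14 (95% interval -0.04 to 0.31; adjusted p = 0.169) at day 19 and 0.01 (95% interval -0.16 to 0.19; adjusted p = 0.893) at day 40. Scaled by library totals without TMM, the day 19 value was 0.22 and passed the threshold (adjusted p = 0.0443, the lowest over the alternatives, which reached 0.504). Per exon length TRAF2 and TRAF3 were the main adaptors among the 4. TRAF3 made up 38.7% ± 1.02 of their summed RPKM at day 0, 47.1% ± 1.83 at day 19 and 43.3% ± 3.86 at day 40, and TRAF2 made up 51.8% ± 1.86, 47.5% ± 3.40 and 44.6% ± 3.14.

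TRAF1, an adaptor that is itself a known NF-κB target and that binds together with TRAF2, fell at day 19 and was not called at day 40. TRAF1 (ENSG00000056558) spans chromosome 9 from 120902393 to 120929173 on the minus strand. The libraries held 11.5, 12.1 and 7.55 CPM at day 0, 5.97, 4.98 and 4.77 CPM at day 19 and 10.9, 10.0 and 6.88 CPM at day 40. Day 19 lay below both other groups without overlap, while day 40 and culture overlapped. TRAF1 had a log2 fold change of -0.98 (SE 0.21; adjusted p = 0.00209) at day 19 and -0.16 (95% interval -0.60 to 0.29; adjusted p = 0.558) at day 40. Day 40 was above day 19 by 0.83 on the log2 scale (SE 0.21; adjusted p = 0.0461), and the ratio within the sampling periods was 1.83, 2.02 and 1.44. This call lay close to the threshold. It was lost with limma voom (adjusted p = 0.0762), without culture replicate 1 (0.0630), when any day 19 library was left out (0.0757, 0.177 and 0.191 for replicates 1, 2 and 3), when day 40 replicate 1 (0.171) or 2 (0.147) was left out, and with day 40 replicate 3 alone (0.829), in a range that began at 5.58e-05.

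TRAF5, an adaptor of CD40 and CD27, varied widely between sampling periods. TRAF5 (ENSG00000082512) spans chromosome 1 from 211326615 to 211374946 on the plus strand. Its levels were 4.07, 6.01 and 1.05 CPM at day 0, 8.17, 4.65 and 1.39 CPM at day 19 and 16.4, 20.6 and 4.87 CPM at day 40. Replicate 3 was the lowest in each group, so that day 40 replicate 3 lay within the range of culture. Within the sampling periods, however, the ratio of day 40 to culture was 4.04, 3.43 and 4.66, and the ratio of day 40 to day 19 was 2.01, 4.44 and 3.50. The ratio of day 19 to culture was 2.01, 0.774 and 1.33.

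By the test that ignored the periods, TRAF5 was higher at day 40 than in culture (log2 fold change 1.94, SE 0.64; adjusted p = 0.0253). This call was lost with DESeq2 (adjusted p = 0.0610), when culture replicate 1 (0.0588) or 3 (0.0744) or day 40 replicate 1 (0.0624) or 2 (0.0953) was left out, and with day 40 replicate 3 alone (log2 fold change 0.40, adjusted p = 0.754), in a range that began at 1.03e-25. At day 19 TRAF5 was not called (log2 fold change 0.37, 95% interval -1.08 to 1.81, adjusted p = 0.664). Between day 40 and day 19 it was not called either (1.57, 95% interval 0.22 to 2.92, adjusted p = 0.217), but that test depended on the choice of fit. It passed with no filter on low counts (adjusted p = 3.08e-17) and with a block on the sampling period (log2 fold change 1.59, adjusted p = 0.00126). With no filter the log2 fold change stayed at 1.57, so that pass came without a larger effect. In the other 15 alternatives TRAF5 did not pass.

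The promoter windows of TRAF3, the adaptor that was higher at both femur days, and of TRAF1, the adaptor that dipped at day 19, are shown for comparison with that of TNFRSF13B (RefSeq, GRCh38.p14, chr14:102777199-102777498 on the plus strand and chr9:120929122-120929421 on the minus strand), with the same motifs in capitals.
TRAF3: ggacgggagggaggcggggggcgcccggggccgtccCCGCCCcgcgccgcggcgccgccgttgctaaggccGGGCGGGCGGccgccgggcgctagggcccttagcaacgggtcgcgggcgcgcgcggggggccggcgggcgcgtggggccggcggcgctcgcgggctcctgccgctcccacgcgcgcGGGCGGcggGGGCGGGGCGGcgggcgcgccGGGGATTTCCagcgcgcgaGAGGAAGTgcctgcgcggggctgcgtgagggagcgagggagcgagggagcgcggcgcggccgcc
TRAF1: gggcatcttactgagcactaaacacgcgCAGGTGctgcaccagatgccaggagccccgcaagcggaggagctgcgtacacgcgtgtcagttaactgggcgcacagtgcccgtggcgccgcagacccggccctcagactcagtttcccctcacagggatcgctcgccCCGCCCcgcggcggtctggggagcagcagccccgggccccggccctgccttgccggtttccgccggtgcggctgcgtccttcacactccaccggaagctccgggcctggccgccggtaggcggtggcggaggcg
The TRAF3 window held GGGGATTTCC, a match to the κB-type letters that begins 33 bases before the start, and GAGGAAGT beginning 14 bases before it, together with 6 matches of GGGCGG, some of which overlap. The TRAF1 window held CAGGTG beginning 222 bases before the start and GGGCGG on the other strand beginning 84 bases before it. The window of TRAF5 held none of the 5 motifs. RefSeq windows were at hand for 6 of the 9 genes, and the 4 searched were those whose start lay within 100 bases of the GENCODE start. TRAF1 and TRAF5 had 3 RefSeq windows each, and only the one nearest to the GENCODE start was searched.

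**Figure D3:**
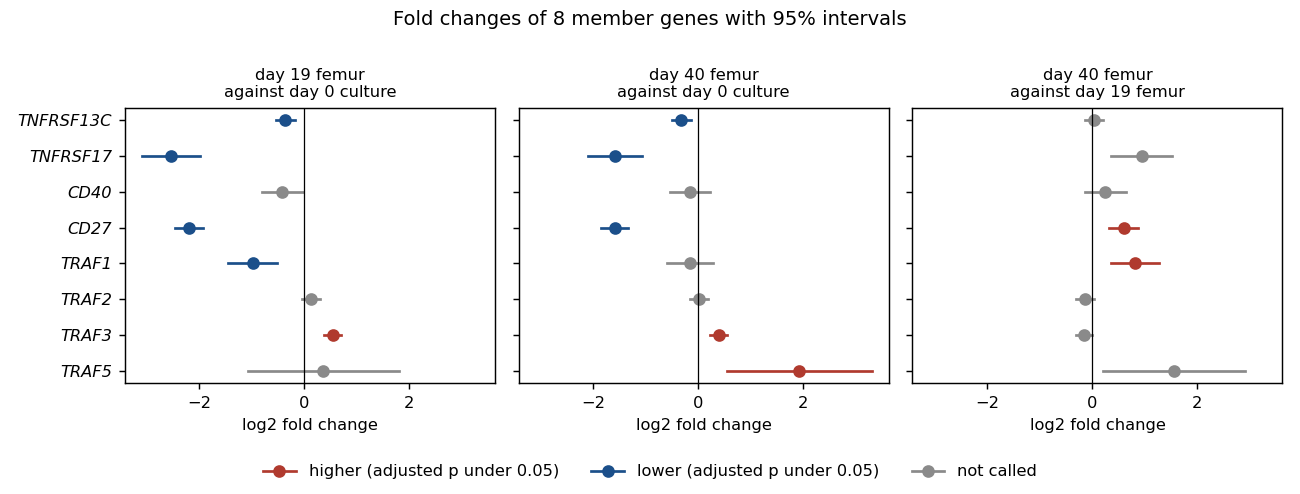
Log2 fold changes of 8 of the 9 genes in the 3 comparisons, with 95% intervals, red for higher and blue for lower at an adjusted p under 0.05 and grey for no call. TNFRSF13B is left out because its culture libraries had no count; TNFRSF17 and CD27 lay lowest at both days and TRAF5 had the widest intervals.

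Ordered by level per exon length, culture ran from TNFRSF13C (51.9 ± 3.86 RPKM) and CD27 (39.8 ± 7.28 RPKM) to TRAF2 (10.8 ± 0.456 RPKM), TRAF3 (8.09 ± 0.281 RPKM), CD40 (7.17 ± 2.10 RPKM), TNFRSF17 (7.11 ± 2.06 RPKM), TRAF1 (1.61 ± 0.383 RPKM), TRAF5 (0.411 ± 0.277 RPKM) and TNFRSF13B, which had no count. Libraries overlapped between neighbours from TRAF3 to TNFRSF17, and the other steps were separate. At day 19 TNFRSF13C (40.5 ± 2.52 RPKM) was followed by TRAF2 (11.9 ± 1.08 RPKM) and TRAF3 (11.8 ± 0.341 RPKM), which overlapped, and only then by CD27 (8.66 ± 0.813 RPKM). CD40 came next at 5.37 ± 0.654 RPKM, and the last 4 genes, TNFRSF13B, TNFRSF17, TRAF1 and TRAF5, lay between 0.525 and 1.27 RPKM on average, each overlapping its neighbour. At day 40 CD27 (13.3 ± 0.464 RPKM) was again second and separate from TRAF2 (10.9 ± 0.413 RPKM). TRAF2 and TRAF3 overlapped at day 40 too, and the last 4 genes lay between 1.44 and 2.36 RPKM on average without separate steps.

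**Figure D4:**
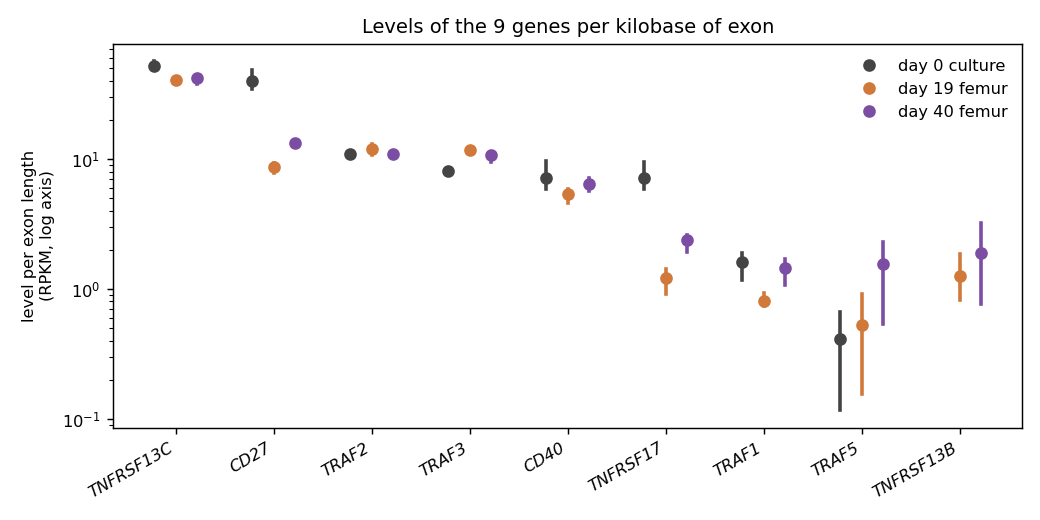
Levels of the 9 genes per kilobase of exon (RPKM, log axis) at day 0 in culture and at day 19 and day 40 in femur, with dots for means and lines from the lowest to the highest of 3 libraries. The culture level of TNFRSF13B is 0 and cannot be drawn, and CD27 stands between TNFRSF13C and TRAF2 in culture but below TRAF2 and TRAF3 at day 19.

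The ligands of these receptors were scarce in the cells themselves, apart from CD70. CD70, the ligand of CD27, had 41.1 ± 14.8 CPM at day 0, 40.3 ± 1.98 CPM at day 19 and 42.7 ± 3.92 CPM at day 40 and was not called. TNFSF13, the APRIL gene, fell to 1.13 ± 0.301 CPM at day 19 and 1.19 ± 0.253 CPM at day 40, against 2.21 ± 0.612 CPM in culture (adjusted p = 0.0149 and 0.0231). These calls were lost when culture replicate 3 was left out (adjusted p = 0.0611 and 0.0896), the day 19 call also when day 19 replicate 1 was (0.0671), and the day 40 call when day 40 replicate 2 (0.0679) or 3 (0.0750) was, and with day 40 replicate 3 alone (0.0895), in ranges that began at 0.00458 and 0.00936. TNFSF13 is annotated together with the readthrough gene TNFSF12-TNFSF13, which had no count. TNFSF13B, the BAFF gene, and CD40LG, the CD40 ligand gene, were too low to be tested, with at most 11 counts and no count in any library. BAFF and CD40 ligand from mouse cells of the marrow were not measured here.

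Below the receptors, the list of 21 genes of the NF-κB relay had 3 higher and 8 lower at day 19. At day 40 it had 6 higher and 6 lower. Of all genes, 52.8% were called at day 19, 46.6% at day 40 and 4.68% between day 40 and day 19. The median log2 fold change of the list was -0.18 at day 19 and -0.02 at day 40, beside 0.01 over all genes at both days. TANK, an adaptor that binds TRAF proteins, fell to 25.5 ± 1.14 CPM at day 19 and 40.7 ± 3.87 CPM at day 40, against 82.6 ± 9.51 CPM in culture (log2 fold change -1.70 and -1.02). RIPK1, the kinase of the TNF receptor 1 complex, fell too (-0.94 and -0.69), and IKBKB, the kinase that releases canonical NF-κB, rose (0.75 and 0.57). MAP3K14, the NIK gene, which was named after its values were seen because TRAF3 restrains NIK, rose to 30.6 ± 1.95 CPM at day 19 and 24.9 ± 0.374 CPM at day 40, against 15.5 ± 1.69 CPM in culture (adjusted p = 3.91e-06 and 1.13e-04). TANK, RIPK1 and MAP3K14 share exon sequence with genes on the opposite strand, and REL with the gene AC010733.2 on its own strand. Between day 40 and day 19, 3 relay genes were higher and 0 lower by edgeR (1 lower by DESeq2 and 2 at an unadjusted p under 0.05), among them TANK (0.68) and the NF-κB subunit REL (0.58; 118 ± 11.9 CPM at day 40 and 79.2 ± 6.70 CPM at day 19). Both lost the call with day 40 replicate 3 alone (adjusted p = 0.0728 and 0.0771, in ranges that began at 8.13e-11 and 1.98e-10).

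Of 14 genes listed as brakes of the pathway, not all of them established inhibitors, 3 were higher and 4 lower at day 19. At day 40, 4 were higher and 2 lower, and the medians at the 2 days were 0.13 and 0.01. Of all genes, 52.8% and 46.6% were called at these days. OTUD7B, a deubiquitinase that protects TRAF3 from degradation, rose to 9.84 ± 1.21 CPM at day 19 and 9.20 ± 2.20 CPM at day 40, against 2.35 ± 0.462 CPM in culture (log2 fold change 2.06 and 1.96). The deubiquitinase CYLD rose at both days (0.37 and 0.50), and TNIP1, a partner of A20, fell at both (-0.55 and -0.45). TRAF3IP3 fell at both days too (-1.07 and -1.35). TRAF3IP2 fell at day 19 (-0.60) and was not called at day 40 (-0.21). CYLD and TRAF3IP2 share exon sequence with genes on the opposite strand and TRAF3IP3 overlaps C1orf74 on the opposite strand. In the comparison of day 40 with day 19 edgeR called 0 genes of this list in either direction. DESeq2 called 1 higher and 0 lower, and 3 were higher and 0 lower at an unadjusted p under 0.05. By edgeR 4.68% of all genes were called in this comparison, so 0 among 14 genes tells little about the list. No share over all genes is given for the DESeq2 and unadjusted counts.

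Of 20 genes known to be induced by CD40 in B cells 15 could be tested, and they went both ways. At day 19, 4 were higher and 7 lower (median -0.53), and at day 40, 5 were higher and 6 lower (median -0.24). Of all genes, 52.8% and 46.6% were called at these days, and 4.68% between day 40 and day 19. The paired costimulatory ligands moved in opposite directions. CD86 fell to 1.70 ± 0.431 CPM at day 19 and 4.06 ± 1.29 CPM at day 40, against 20.9 ± 6.02 CPM in culture (log2 fold change -3.61 and -2.35). CD80, which overlaps TIMMDC1 on the opposite strand, rose to 10.5 ± 1.26 CPM and 7.14 ± 0.675 CPM, against 2.17 ± 0.364 CPM in culture (2.27 and 1.72). PLEK, which codes for the signalling protein pleckstrin, fell at both days (-2.36 and -1.53). Between day 40 and day 19, 4 of the 15 were higher and 0 lower by edgeR (1 lower by DESeq2 and 1 at an unadjusted p under 0.05) with a median of 0.61, among them the death receptor FAS (2.13 ± 0.217 CPM at day 40 and 0.634 ± 0.0634 CPM at day 19; log2 fold change 1.74), which shares exon sequence with ACTA2 on the opposite strand, and PLEK (0.83). The FAS call was lost with day 40 replicate 3 alone (adjusted p = 0.0545, from 8.37e-06 in the other extreme). The PLEK call was lost when day 19 replicate 2 (adjusted p = 0.0699) or 3 (0.0675) or day 40 replicate 2 (0.0590) was left out and with day 40 replicate 3 alone (0.314), in a range that began at 2.27e-15.

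Among 22 other TNF receptor family genes, FAS included, 12 could be tested. At day 19, 3 of them were higher and 2 lower, and at day 40, 5 were higher and 2 lower (medians -0.33 and 0.11). Of all genes, 52.8% and 46.6% were called at these days. TNFRSF14, the receptor HVEM, which is often lost in follicular lymphoma, rose to 29.4 ± 3.66 CPM at day 19 and 33.9 ± 7.78 CPM at day 40, against 8.41 ± 1.30 CPM in culture (log2 fold change 1.81 and 2.02), and overlaps the antisense gene TNFRSF14-AS1. TNFRSF21, the death receptor DR6, rose to 50.2 ± 5.01 CPM at day 19 and 25.6 ± 6.06 CPM at day 40, against 13.0 ± 0.811 CPM in culture (1.95 and 0.98). It was lower at day 40 than at day 19 (-0.97; adjusted p = 0.00236). TNFRSF1A, the TNF receptor 1 gene, fell at both days (-0.65 and -0.38). RELT, which shares exon sequence with AP000763.4 on the opposite strand, rose by 0.40 at both days. Its day 40 call was not kept with day 40 replicate 3 alone (log2 fold change 0.27).

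Markers of other cell types were low. Myeloid markers summed to 2.63 to 5.00 CPM at day 0, 4.98 to 6.28 CPM at day 19 and 2.87 to 5.68 CPM at day 40, with S100A8, S100A9 and FCGR3A at 0. Erythroid markers summed to at most 0.164 CPM in any library, with HBB and HBA2 at 0. Endothelial markers summed to 4.42 to 7.60 CPM in culture, 1.60 to 3.12 CPM at day 19 and 3.27 to 4.23 CPM at day 40, with CDH5, KDR and TEK at 0. Stromal markers summed to 0.137 to 0.503 CPM in culture, 4.04 to 6.79 CPM at day 19 and 3.44 to 4.56 CPM at day 40, with COL1A2, COL3A1, LUM, CXCL12 and POSTN at 0. PDGFRB gave most of the femur sums, with 5.17 ± 1.34 CPM at day 19 and 3.44 ± 0.343 CPM at day 40, against 0.0445 ± 0.0455 CPM in culture. The stromal sum rose with TNFRSF13B between culture and femur, and its part in that result was not tested.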

How the data were processed

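The 9 deposited tables give raw read counts for each Ensembl gene. Per the submitters' processing notes, FastQC 0.11.5, STAR 2.5.2a, featureCounts 1.4.6 and DESeq2 1.40.1 were used on hg38. The sources used here do not give the gene annotation, the strand setting or the handling of mouse reads and of reads with several positions. GENCODE 29 named 57980 of 58243 identifiers. No 2 libraries held identical counts.

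Genes were filtered with filterByExpr and tested with edgeR 4.0.16 in R 4.3.3 (TMM scaling, quasi-likelihood F-test, 1 coefficient per group over 9 libraries, two-sided, Benjamini-Hochberg over 15163 genes). The SE is the log2 fold change divided by the root of F, and intervals are 95%. RPKM divides CPM by the summed exon length. A count of 0 was read as up to 3. Genes outside the 9 were named by the smallest adjusted p among called genes in each list (3 against culture at each day, 2 between the femur groups), and by the highest correlation of log2 CPM (prior count 2) for TNFRSF13B, TNFRSF13C and CD40 among genes with at least 5 CPM in a group. The members and lists were chosen with earlier results of these data known. Alternatives used DESeq2 1.42.0, limma 3.58.1, other scaling, no filter, 2 groups only, a period block and left-out libraries. Day 40 replicate 3 alone was added after the data were seen.
The fit was tested on simulated data of 15163 genes, in which 67, 69 and 64 genes changed by 0.5, 1 and 2 on the log2 scale. Over the 3 comparisons it recovered 43.3% to 46.3% of changes of 0.5 on the log2 scale. It recovered 68.1% to 76.8% of changes of 1 and 90.6% to 93.8% of changes of 2. Of the calls 6.29% to 6.62% were false. Far more genes were called against culture in the real data than were changed here, so these shares may not carry over to those comparisons.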

Additional observations from a re-analysis of the deposited data

Results flagged for a closer look

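For 11 genes named above the change against culture differed between day 40 and day 19, by the edgeR contrast of the femur groups. As log2 fold changes of day 40 over day 19 these were 0.61 for CD27, 0.83 for TRAF1, 0.58 for REL, 0.68 for TANK, 1.74 for FAS, 0.83 for PLEK and -0.97 for TNFRSF21, and among genes named for another comparison or as markers 1.26 for CD86, 1.05 for CD22, 0.60 for MS4A1 and 1.35 for TRAC. NFKB2 (0.41) and CD83 (0.93), counted in their lists above but not named there, were also called higher. In each of the 11 the libraries of the femur groups did not overlap. This is no separate evidence, since the 11 were picked by the same contrast, whereas the 26.6% without overlap covers all genes, called or not. All but FAS and TNFRSF21 were lower at day 19 than in culture and higher at day 40 than at day 19, and TNFRSF21 had been higher and was lower again. FAS was not called at day 19. The day 19 libraries enter both comparisons. Of the first 7, only the TNFRSF21 call was kept in all 17 alternatives, which were not run for the other 4. Groups of 3 libraries are too small for a search for single outlying libraries.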

How the results depend on the processing

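Of the 27 comparisons of the 9 genes, 13 kept direction and side of the threshold in all 17 alternatives. Of 459 values 419 did so, 18 lost the call, 11 gained it and 11 changed sign. None of the changes of sign was in a called value. When single libraries were left out, TRAF5 ranged from -0.29 to 0.89 at day 19 (log2 fold change). At day 40 CD40 ranged from -0.30 to 0.10, TRAF1 from -0.36 to 0.021 and TRAF2 from -0.020 to 0.050, with TRAF2 at -0.0093 with no filter. Between day 40 and day 19 TNFRSF13B ranged from -0.023 to 0.98, with -0.72 for day 40 replicate 3 alone, and TNFRSF13C from -0.0065 to 0.11. Of the 34 comparisons of other named genes, 26 were unchanged in side of the threshold and direction in the 17 alternatives.

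The number of the 9 genes higher at day 40 than at day 19 (2) was 4 with no filter, 1 with limma voom, 0 with day 40 replicate 3 alone and 0 to 3 when single libraries were left out. The replicate block on the sampling period gave 4, with TRAF5 at 1.59 (adjusted p = 0.00126) and TNFRSF17 added, and it changed no other call among the 9 genes. Same-numbered libraries deviated together with correlations of -0.05 to 0.31, and each of the 9 correlated best with its own number. The periods come from the dates in the titles, and the labels do not say that their libraries were paired. Over all genes, 490 were higher and 220 lower at day 40 than at day 19, against 890 higher and 434 lower with no filter, 360 lower with DESeq2 and 396 lower with only the 2 groups. With day 40 replicate 3 alone there were 82 higher and 17 lower, and against culture 2035 higher and 2030 lower, where all libraries gave 3527 and 3538. Single libraries moved the counts for day 40 against day 19 from 217 to 755 higher and from 63 to 438 lower. The causes were not tested. Depth limits TNFRSF13B, which had 66 to 318 counts per femur library.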
